A study of Homo sapiens with 18 samples.

Results

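The transcripts described here code for the nuclear-encoded subunits of the mitochondrial respiratory chain and of ATP synthase. They were chosen by gene symbol as all rows of the NDUFA, NDUFB, NDUFC, NDUFS and NDUFV series (complex I), SDHA to SDHD (complex II), the UQCR genes (complex III), the COX4 to COX8 symbols that end in at most 1 of the letters A to C and a number (complex IV) and the ATP5 genes (complex V). This gave 80 of the 26249 genes measured, with 37 in complex I, 4 in complex II, 8 in complex III, 14 in complex IV and 17 in complex V. The rule reads symbols and no measured value. NDUFA4 carries a complex I symbol and is counted there, although it is known as a subunit of complex IV. ATP5S, a coupling factor, and ATP5L2, a copy of ATP5L, also carry ATP5 symbols and are counted in complex V.

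RNA was measured in 18 libraries of cultures labelled XG1 and AMO1, the names of human multiple myeloma lines, grown in RPMI medium with fetal bovine serum. Cells of each line received DMSO, the solvent, or YKL-5-124, a covalent inhibitor of the transcription and cell cycle kinase CDK7, at 100 or 1000 nM for 6 h, with 3 libraries in each of the 6 groups. The series title calls the lines resistant and concerns CDK7 inhibition in myeloma. Levels are in FPKM, a read count scaled by transcript length and sequencing depth, from libraries that read the 3′ ends of polyadenylated RNA.

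The respiratory chain passes electrons to oxygen in the inner mitochondrial membrane. Complex I takes them from NADH and complex II from succinate, coenzyme Q carries them to complex III, and cytochrome c carries them on to complex IV, which reduces oxygen. Complexes I, III and IV pump protons, and complex V, the ATP synthase, lets the protons back to make ATP. A further 13 subunits of complexes I, III, IV and V are encoded by mitochondrial DNA, and none of their 13 symbols had a row in the tables used here.

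Plasma cell transcripts were far lower in the libraries labelled XG1 than in AMO1 libraries. Of 10 plasma cell markers, 1 was at 10 FPKM or more in all 9 XG1 libraries (XBP1), against 9 in all 9 AMO1 libraries, and their summed level was 44.4 to 75.9 FPKM in XG1 against 4808 to 7249 FPKM in AMO1. IRF4, PRDM1, SLAMF7, CD38 and POU2AF1 were below 1 FPKM in every XG1 library. Of 14 erythroid markers, 11 were at 10 FPKM or more in all XG1 libraries, against 1 in all AMO1 libraries, with sums of 3888 to 4683 FPKM and 24.9 to 70.3 FPKM. XG1 below names libraries by their label, and what that label stands for was not tested. A pair of libraries stood low: AMO1 DMSO replicate 3 was the lowest of its group for 69 of the 80 members, and XG1 1000 nM replicate 2 had the lowest median over all genes of the 18 libraries. AMO1 1000 nM replicate 1 was the lowest of its group for 63 of the 80.

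Of the 80 members, 75 reached a mean of 1 FPKM in at least 1 group and were tested, and the other 5 were all isoforms of complex IV subunits. COX6A2 and COX7A1 are the heart and muscle forms, and COX6B2, COX7B2 and COX8C are known from testis. COX6A2, COX7A1 and COX7B2 sat at the lowest common value of each library, between 0.0745 and 0.133 FPKM, in all 18 libraries. COX8C reached 2.63 FPKM in 1 XG1 library at 100 nM, where the other 2 libraries of the group were at 0.106 and 0.113 FPKM. COX6B2 stayed at or below 0.407 FPKM. The ubiquitous partners of these isoforms were abundant, with COX7A2 between 1119 and 1709 FPKM over the 9 XG1 libraries and between 825 and 1162 FPKM over the 9 AMO1 libraries.

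FPKM is set by length, and 3′ end reads are not, so levels of different genes in FPKM do not rank molecules. On that scale and over all 18 libraries, the means ran from 11.1 FPKM for NDUFS1, the largest complex I subunit, to 3079 FPKM for NDUFS6, a zinc-binding complex I accessory subunit. In complex II they ran from 11.8 FPKM for SDHD to 77.7 FPKM for SDHC, the membrane anchors. In complex III UQCRC1, a core subunit, was lowest at 85.3 FPKM and UQCRH, the hinge protein, highest at 3169 FPKM. Tested complex IV members ran from COX6A1 at 630 FPKM to COX7C at 2713 FPKM. In complex V ATP5L, subunit g, was highest at 2622 FPKM and ATP5L2, a copy related to it, lowest at 0.572 FPKM. Within a group the members varied less than most genes, with a median SD of 0.19 against 0.24 on the log2(FPKM + 1) scale over all genes tested. RefSeq names pseudogenes for 48 of the 80, and reads from such copies could be split between gene and pseudogene.

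Many nuclear genes of the chain share a few promoter elements, known as binding sites of NRF1, of ETS factors such as GABPA, and of YY1. Of the 80 members 65 had a promoter in the RefSeq table of GRCh38.p14, from 250 bases before to 50 after the start. Both strands were searched for 5 letter patterns, chosen after results were known: GCGCA, any base and GCGC for NRF1, CCGGAAG for ETS factors such as GABPA, AAGATGGC for YY1, TGACGTCA for CREB-type factors and CCAAT for NF-Y. The NRF1 pattern lay in 16 member promoters (24.6%), against 6.29% of all 27305 promoters of that length. The ETS pattern lay in 18 (27.7%, against 10.7%), the YY1 pattern in 11 (16.9%, against 3.03%), the CREB pattern in 5 (7.69%, against 1.98%) and CCAAT in 22 (33.9%, against 35.7%). A match describes the letters and not binding.

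The promoters below are those of NDUFS4, the 1 member called after treatment, of SDHD, the member with the largest difference between the lines, and of the c subunit genes that take opposite sides (ATP5G1, now named ATP5MC1, and ATP5G2, now ATP5MC2). They are at chr5:53560389-53560688 on the plus strand, chr11:112086623-112086922 on the plus strand, chr17:48892537-48892836 on the plus strand and chr12:53676034-53676333 on the minus strand of GRCh38.p14, each read 5′ to 3′ with the start at base 251. Capitals mark matches to the 5 patterns on either strand.
NDUFS4: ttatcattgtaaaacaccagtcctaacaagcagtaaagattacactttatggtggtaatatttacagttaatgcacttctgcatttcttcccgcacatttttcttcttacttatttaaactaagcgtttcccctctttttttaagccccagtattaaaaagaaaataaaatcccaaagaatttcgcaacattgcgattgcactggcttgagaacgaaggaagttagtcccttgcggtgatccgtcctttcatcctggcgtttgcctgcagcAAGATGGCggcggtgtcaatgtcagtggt
SDHD: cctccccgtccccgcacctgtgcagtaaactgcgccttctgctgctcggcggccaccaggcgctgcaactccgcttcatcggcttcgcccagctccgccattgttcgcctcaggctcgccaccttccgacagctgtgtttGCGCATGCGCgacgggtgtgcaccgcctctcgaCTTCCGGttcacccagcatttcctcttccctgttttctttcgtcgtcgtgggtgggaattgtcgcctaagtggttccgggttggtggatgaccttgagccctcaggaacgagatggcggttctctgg
ATP5G1: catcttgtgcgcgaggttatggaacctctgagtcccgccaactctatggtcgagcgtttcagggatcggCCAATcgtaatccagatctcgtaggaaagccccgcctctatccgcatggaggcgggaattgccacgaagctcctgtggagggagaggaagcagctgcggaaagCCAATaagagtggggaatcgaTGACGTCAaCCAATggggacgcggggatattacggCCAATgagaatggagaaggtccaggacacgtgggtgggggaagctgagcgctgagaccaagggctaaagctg
ATP5G2: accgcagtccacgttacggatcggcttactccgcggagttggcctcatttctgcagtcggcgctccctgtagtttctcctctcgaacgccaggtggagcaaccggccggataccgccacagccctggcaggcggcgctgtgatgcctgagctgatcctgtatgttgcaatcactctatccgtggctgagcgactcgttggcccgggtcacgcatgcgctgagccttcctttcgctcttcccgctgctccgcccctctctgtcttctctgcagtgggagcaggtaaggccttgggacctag
NDUFS4 has the YY1 pattern at bases 272 to 279, after the start. SDHD has the NRF1 pattern at bases 141 to 150 and the ETS pattern, read on the other strand, at bases 174 to 180. ATP5G1 has the CREB pattern at bases 194 to 201 and CCAAT 4 times, and none of these overlap. ATP5G2 holds none of the 5 patterns in this window.

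After YKL-5-124 few respiratory chain transcripts passed the test in either line, in a count that moved with the scaling. At 100 nM no member passed the test in either line, and at 1000 nM 1 did in XG1 and none in AMO1, while of all 12204 genes tested 17.6% were called in XG1 at 1000 nM, 1.9% higher and 15.7% lower, and 17.1% in AMO1, 1.78% higher and 15.4% lower. The test was limma on log2(FPKM + 1) with adjustment over all genes and a threshold of 0.05. Changes below are differences on that scale, treated minus DMSO, with their SE. Both doses of a line were set against the same DMSO libraries. Nothing in the labels says whether the 3 replicates of a group came from different cultures, and the p-values cover the scatter among libraries alone, which could be technical.

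**Figure D1:**
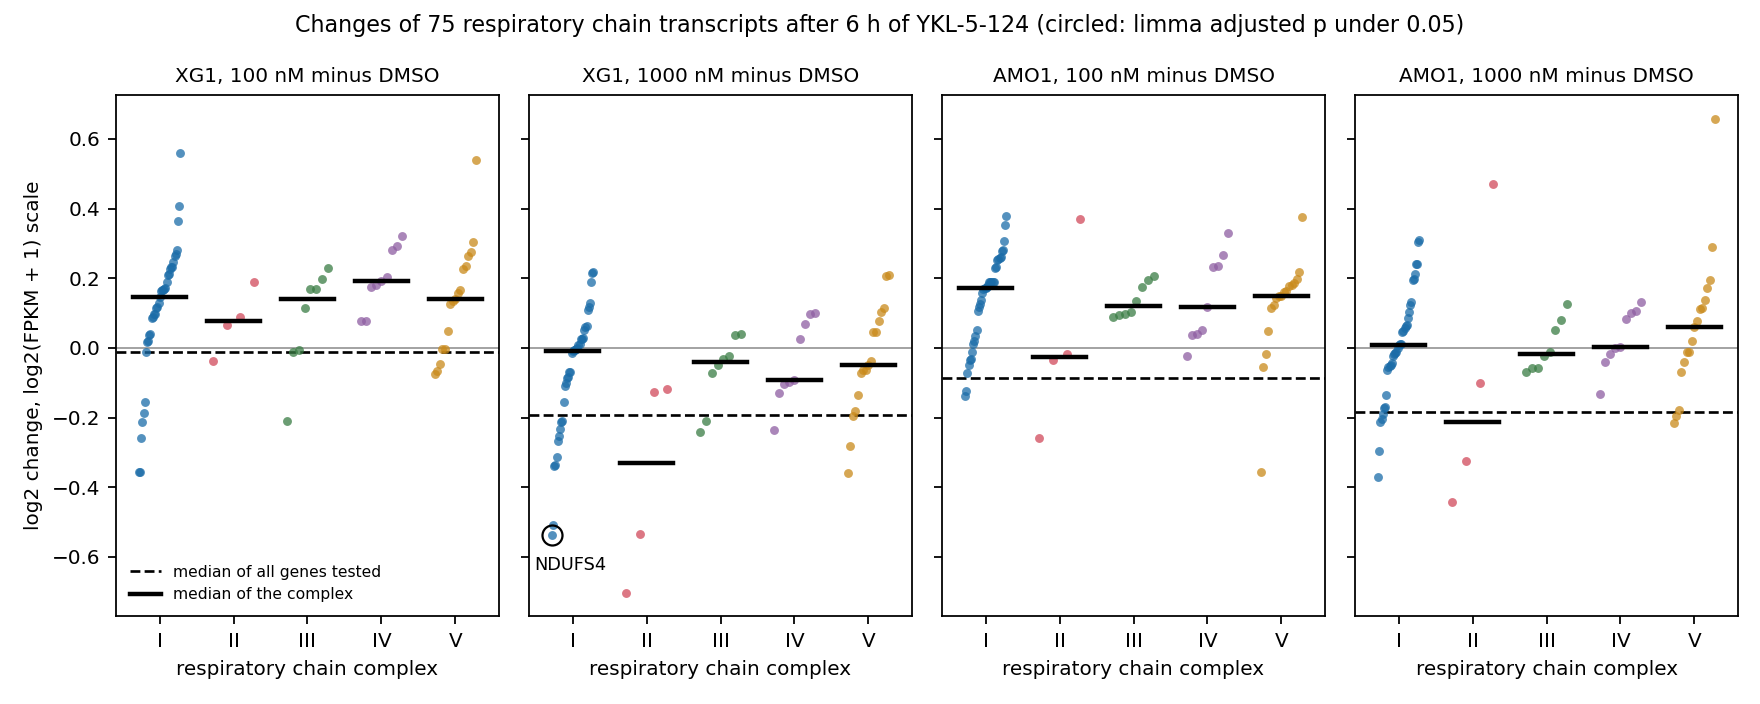
Each point is 1 of 75 tested members, with its log2 change on the vertical axis and its complex on the horizontal axis, in 4 panels for the 2 doses in XG1 and in AMO1. Short bars are the medians of the complexes and the dashed line is the median of all genes tested. At 1000 nM the medians of complexes I, III, IV and V lie between -0.09 and 0.06, above the dashed lines at -0.19 in XG1 and -0.18 in AMO1, complex II lies below them at -0.33 and -0.21, and NDUFS4 in XG1 is the 1 circled member.

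At 100 nM 6.61% of all genes were called in XG1, 2.63% higher and 3.98% lower, and 2.2% in AMO1, 0.434% higher and 1.76% lower. In XG1 0 of 75 members were called by limma, with 5 at an unadjusted p under 0.05, and 59 of the 75 changes were above 0. Their median was 0.16, against -0.01 over all genes tested. In AMO1 0 of 75 were called, with 4 at an unadjusted p under 0.05, and 61 of 75 changes were above 0, with a median of 0.16 against -0.09 over all genes. The AMO1 median moved with 1 library: without AMO1 DMSO replicate 3 it was -0.01, against -0.18 over all genes. Libraries of the 2 groups did not overlap for 16 members that were higher and 3 that were lower at 100 nM in XG1, where 11.3% and 16.1% of all genes did so, and for 7 and 0 in AMO1, where 4.4% and 14.4% did.

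As deposited, the members' changes at 1000 nM spread around 0 while those of all genes lay mostly below it. In XG1 48 of 75 changes were below 0 (64%), against 73.6% of all genes, and the median was -0.05, against -0.19. In AMO1 36 of 75 were below 0 (48%), against 74.0% of all genes, and the median was 0.00, against -0.18. Without AMO1 DMSO replicate 3 the AMO1 median was -0.13, against -0.28 over all genes, and without AMO1 1000 nM replicate 1 it was 0.06, against -0.16. Without XG1 1000 nM replicate 2 the XG1 median was 0.00, against -0.10. Libraries of the groups did not overlap for 1 member higher and 7 lower in XG1, where 4.15% and 28.0% of all genes did so, and for 1 higher and 3 lower in AMO1, where 4.44% and 31.2% did. The spike-in medians of the 18 libraries lay between -0.08 and 0.07 log2 from the mean of each spike-in, and scaling to them left member medians of -0.04 in XG1 and -0.01 in AMO1. In bulk RNA fewer cells and less RNA per cell cannot be told apart.

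The 95% intervals describe the size of these changes as deposited, for each gene alone and from the scatter among libraries. They do not cover the choice of scaling. Centring moved the members' median at 1000 nM from -0.05 to 0.21 in XG1 and from 0.00 to 0.30 in AMO1. In XG1 the 95% interval of the change lay within 2-fold of DMSO for 72 of 75 members at 100 nM and 72 at 1000 nM, and within 1.5-fold for 54 and 57. In AMO1 it lay within 2-fold for 73 and 72, and within 1.5-fold for 59 and 58. The members are abundant, so genes averaging 100 FPKM or more were also taken alone. Of 982 such genes, 11.1% were called in XG1 and 10.6% in AMO1 at 1000 nM, and of the 62 members among them 0 were called by limma in either line, with 3 in XG1 and 1 in AMO1 at an unadjusted p under 0.05. The median change over these 982 genes was -0.15 in XG1 and -0.09 in AMO1, and over the 62 members it was -0.04 and 0.01.

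The medians of complexes I, III, IV and V lay close together, and that of complex II was the lowest of the 5 in each comparison with DMSO. At 1000 nM in XG1 the medians were -0.01 for complex I, -0.33 for complex II, -0.04 for complex III, -0.09 for complex IV and -0.05 for complex V. In AMO1 they were 0.01, -0.21, -0.02, 0.00 and 0.06 in the same order of complexes. At 100 nM in XG1 they were 0.14, 0.08, 0.14, 0.19 and 0.14, and in AMO1 0.17, -0.03, 0.12, 0.12 and 0.15. Complex II has 4 members, of which 0 were called by limma at either dose in either line and 1, SDHB in XG1 at 1000 nM, had an unadjusted p under 0.05, so its lower medians are a description. The complex II median in XG1 at 1000 nM was -0.10 without XG1 1000 nM replicate 2, and that in AMO1 was -0.06 without AMO1 1000 nM replicate 1.

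Within complex I the 7 core subunits, which carry the flavin and the iron-sulfur clusters, had a median of -0.19 in XG1 at 100 nM, against 0.17 for the other 30, and of 0.12 in AMO1, against 0.18. At 1000 nM these medians were -0.21 and -0.01 in XG1 and -0.02 and 0.01 in AMO1, and without XG1 1000 nM replicate 2 those in XG1 were -0.11 and 0.03. No core subunit was called in these comparisons. The lowest p among them in XG1 at 1000 nM, seen after the values, was that of NDUFV2, an iron-sulfur subunit of the NADH-binding module. NDUFV2 averaged 213 FPKM at 1000 nM and 270 FPKM in DMSO (-0.34 ± 0.14, limma adjusted p = 0.111).

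NDUFS4, whose promoter with its YY1 pattern is printed above, was the 1 member called. It codes for an accessory subunit of complex I that holds the NADH-binding module in place, and its loss is a known cause of Leigh syndrome. In XG1 it was at 72.9, 81.0 and 108 FPKM at 1000 nM, against 140, 128 and 110 FPKM in DMSO. The 2 groups did not overlap, and the change was -0.54 ± 0.17 (95% interval -0.89 to -0.18, limma adjusted p = 0.0328). At 100 nM the XG1 libraries were at 83.7, 113 and 122 FPKM, which overlaps DMSO. In AMO1 NDUFS4 was at 72.5, 76.5 and 90.8 FPKM at 1000 nM, against 99.6, 93.2 and 83.3 FPKM in DMSO, and these overlap. The difference between the lines' responses at 1000 nM, XG1 minus AMO1, was -0.33 ± 0.24 (limma adjusted p = 0.729). The call in XG1 ended in 4 of 18 fits that left out 1 library (XG1 DMSO replicate 1 or 2, XG1 1000 nM replicate 1 or 2). All 4 lacked a library of the groups compared, and the call held without the remaining library of either group. Fits without a library of other groups kept the change at -0.54. Over the 18 the limma adjusted p lay between 0.00874 and 0.145. The call also ended after centring on library medians (-0.28, adjusted p = 0.283) or quantile normalisation (-0.30, adjusted p = 0.183). It ended too with no filter, the compared libraries alone or a replicate block (adjusted p = 0.0726, 0.078 and 0.066). It held with other pseudocounts, a higher minimum mean or no trend and robust estimation (adjusted p between 0.0264 and 0.0441). With spike-in scaling the call held (-0.52, limma adjusted p = 0.0408). The spike-in medians lay within -0.08 to 0.07 log2, so that scaling stays close to the values as deposited and adds little of its own.

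Complex II, succinate dehydrogenase, also belongs to the tricarboxylic acid cycle. SDHA holds the flavin, SDHB the iron-sulfur clusters, and SDHC and SDHD anchor both in the membrane. SDHB was at 49.9, 32.6 and 56.5 FPKM at 1000 nM in XG1, against 77.0, 65.2 and 57.0 FPKM in DMSO. The groups did not overlap, by a narrow margin, and the change of -0.54 ± 0.19 missed the threshold (limma adjusted p = 0.0534). Without AMO1 DMSO replicate 3, SDHB and NDUFV2 were called lower beside NDUFS4, where 19.3% of all genes were, and SDHB was also called without XG1 DMSO replicate 3 or XG1 1000 nM replicate 3. Without XG1 1000 nM replicate 2 the change was -0.31 (limma adjusted p = 0.315). In AMO1 SDHB was at 39.3, 46.9 and 48.3 FPKM at 1000 nM, against 49.9, 55.5 and 63.9 FPKM in DMSO (-0.33 ± 0.19, limma adjusted p = 0.262), again without overlap.

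The other complex II subunits overlapped or varied widely. SDHD in XG1 was at 20.4, 4.76 and 19.7 FPKM at 1000 nM, against 27.7, 29.9 and 11.4 FPKM in DMSO. Its change of -0.70 ± 0.47 (limma adjusted p = 0.341) was the lowest of the 75, and 1 library, XG1 1000 nM replicate 2, stood far below the rest. Without it the change was -0.08 (limma adjusted p = 0.95) and NDUFS4 was the lowest. SDHA in AMO1 was at 98.7, 118 and 121 FPKM at 1000 nM, against 109, 105 and 45.4 FPKM in DMSO (0.47 ± 0.24, limma adjusted p = 0.202), and the low value is DMSO replicate 3, without which the change was 0.07 (limma adjusted p = 0.828). SDHC changed by -0.12 ± 0.22 in XG1 (limma adjusted p = 0.795) and -0.10 ± 0.22 in AMO1 (limma adjusted p = 0.843) at 1000 nM. Both SDHC signs, and that of SDHA in XG1 (-0.13 ± 0.24, limma adjusted p = 0.791), turned after centring or quantile normalisation.

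**Figure D2:**
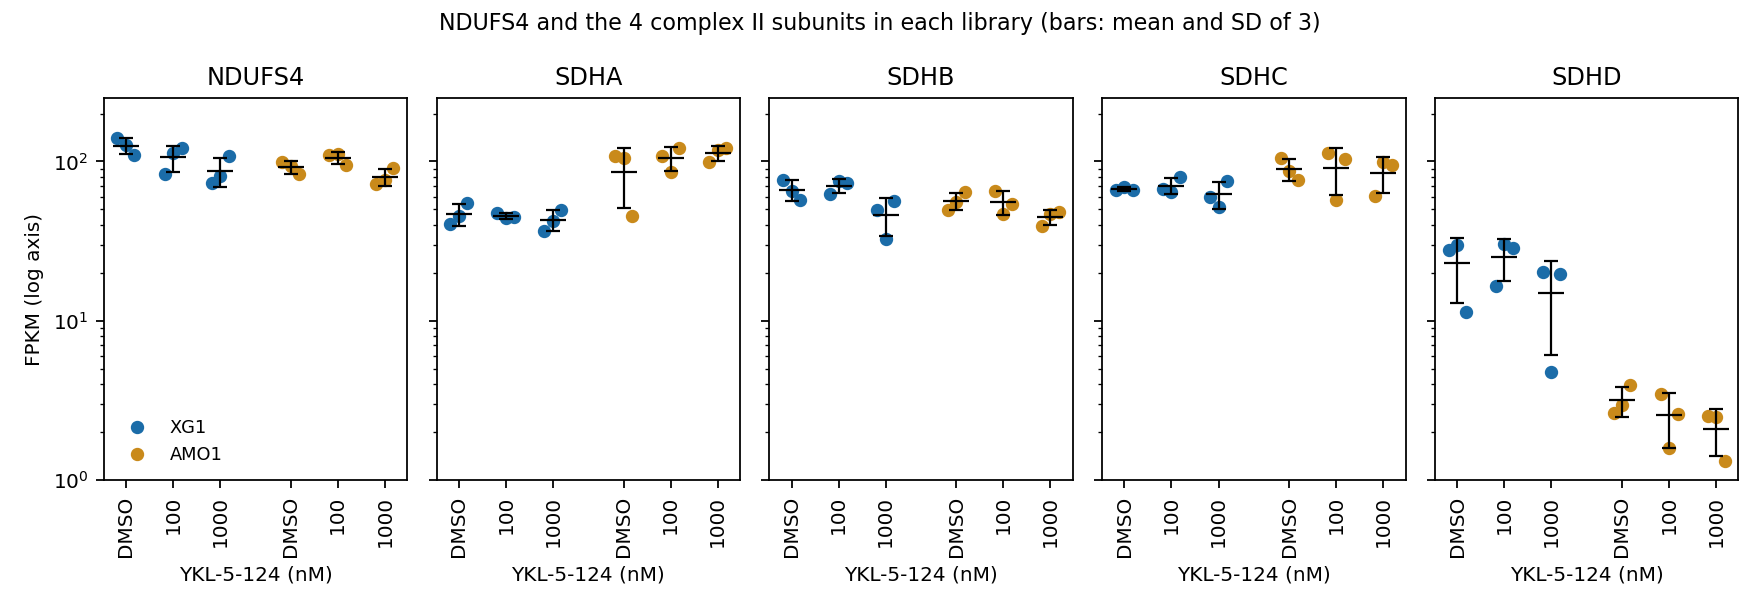
FPKM on a log axis for NDUFS4 and the 4 complex II genes, with 1 point per library, the YKL-5-124 dose on the horizontal axis, XG1 in blue and AMO1 in orange, and bars for the mean and SD of 3 libraries. NDUFS4 in XG1 lies at 72.9 to 108 FPKM at 1000 nM and at 110 to 140 FPKM in DMSO, and SDHD lies at 4.76 to 30.2 FPKM in XG1 and 1.32 to 3.93 FPKM in AMO1.

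In complexes III, IV and V 0 members were called at either dose in either line by limma. At unadjusted p under 0.05 there were 0 in complex III in all 4 comparisons, 1 in complex IV at 100 nM in each line, and in complex V 3 and 1 at 100 nM in XG1 and AMO1, and 1 and 0 at 1000 nM. Named here for their low p, seen after the values, are COX5B, which carries zinc in complex IV, and ATP5H, subunit d of the ATP synthase stalk. COX5B averaged 1231 FPKM at 100 nM in XG1 and 992 FPKM in DMSO (0.32 ± 0.13, limma adjusted p = 0.151). ATP5H averaged 489 FPKM at 100 nM in XG1 and 335 FPKM in DMSO (0.54 ± 0.20, limma adjusted p = 0.129), and its libraries overlapped. Without AMO1 DMSO replicate 3, which enters this comparison only through the shared estimate of the spread, COX5B and ATP5E, the epsilon subunit of the F1 head, were called higher at 100 nM in XG1 (limma adjusted p = 0.0369 and 0.0357), where 3.45% of all genes were. In AMO1 the lowest adjusted p at 1000 nM was that of NDUFB7, an accessory subunit in the membrane arm of complex I, which averaged 1373 FPKM at 1000 nM and 1757 FPKM in DMSO (-0.37 ± 0.15, limma adjusted p = 0.0963).

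The doses were also set against each other. Between 1000 and 100 nM, 0 members were called by limma in either line, with 8 at an unadjusted p under 0.05 in each, where 0.139% of all genes were called in XG1 and 0.18% in AMO1. The change was below 0 for 69 of 75 members in XG1 (median -0.18, equal to -0.18 over all genes) and for 56 of 75 in AMO1 (median -0.14, against -0.11). Libraries did not overlap for 16 members lower and 1 higher at 1000 nM in XG1, where 16.5% and 0.991% of all genes did so, and for 22 lower and 0 higher in AMO1, where 19.3% and 2.85% did. The difference between the lines' responses was called by limma for 0 of 75 members at either dose, with 1 at an unadjusted p under 0.05 at each, where 0.156% of genes were called at 100 nM and 0.68% at 1000 nM.

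The scaling of the libraries moved these counts. The median of all genes tested was -0.19 in XG1 and -0.18 in AMO1 at 1000 nM as deposited, 0.07 and 0.11 after centring on library medians, and 0.01 and 0.00 after quantile normalisation. The members' medians were -0.05 and 0.00 as deposited, 0.21 and 0.30 after centring, and 0.15 and 0.15 after quantile normalisation. After centring 0 members in XG1 and 7 in AMO1 were called higher at 1000 nM, where 7.94% and 8.29% of all genes were. After quantile normalisation 4 and 5 were, where 9.62% and 7.06% of all genes were higher, and 9.91% and 8.28% lower. SDHA and NDUFA13, a complex I accessory subunit, were among those called in AMO1 both ways; as deposited the SDHA change was 0.47, and 0.07 without AMO1 DMSO replicate 3. Spike-in scaling called NDUFS4 lower in XG1 and no other member at either dose. At 100 nM in XG1, 1 member was called higher after centring and 6 after quantile normalisation, where 5.01% and 7.31% of genes were, and in AMO1 there were 0 under both, where 2.37% and 1.68% were. No member was called lower after centring or quantile normalisation at either dose.

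Among genes that build and serve the chain, the share called lower at 1000 nM differed from list to list, and for some lists it lay at or under that of all genes. The lists were written from general knowledge with earlier results of these data known, and their counts stand beside 15.7% of all genes called lower in XG1 and 15.4% in AMO1. Of 77 mitochondrial ribosomal protein genes, whose products translate the mitochondrially encoded subunits, 27 were called lower in XG1 and 22 in AMO1, with medians of -0.47 and -0.38. Of 47 assembly factors of complexes I to V, 15 and 7 were called lower, with medians of -0.30 and -0.28. Of 19 factors of mitochondrial transcription and biogenesis, 5 and 6 were lower. Of 15 genes of electron carriers and coenzyme Q synthesis, 4 and 1 were, and of 14 tricarboxylic acid cycle genes 2 and 0. Of 8 tested subunits or regulators that the symbol rule misses, such as NDUFAB1, CYC1, COX4I1 and ATPIF1, 0 were called by limma in either line, with 0 in XG1 and 0 in AMO1 at an unadjusted p under 0.05. Among the 14 cycle genes in AMO1 0 had an unadjusted p under 0.05. The difference between any list and the subunits was not tested.

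**Figure D3:**
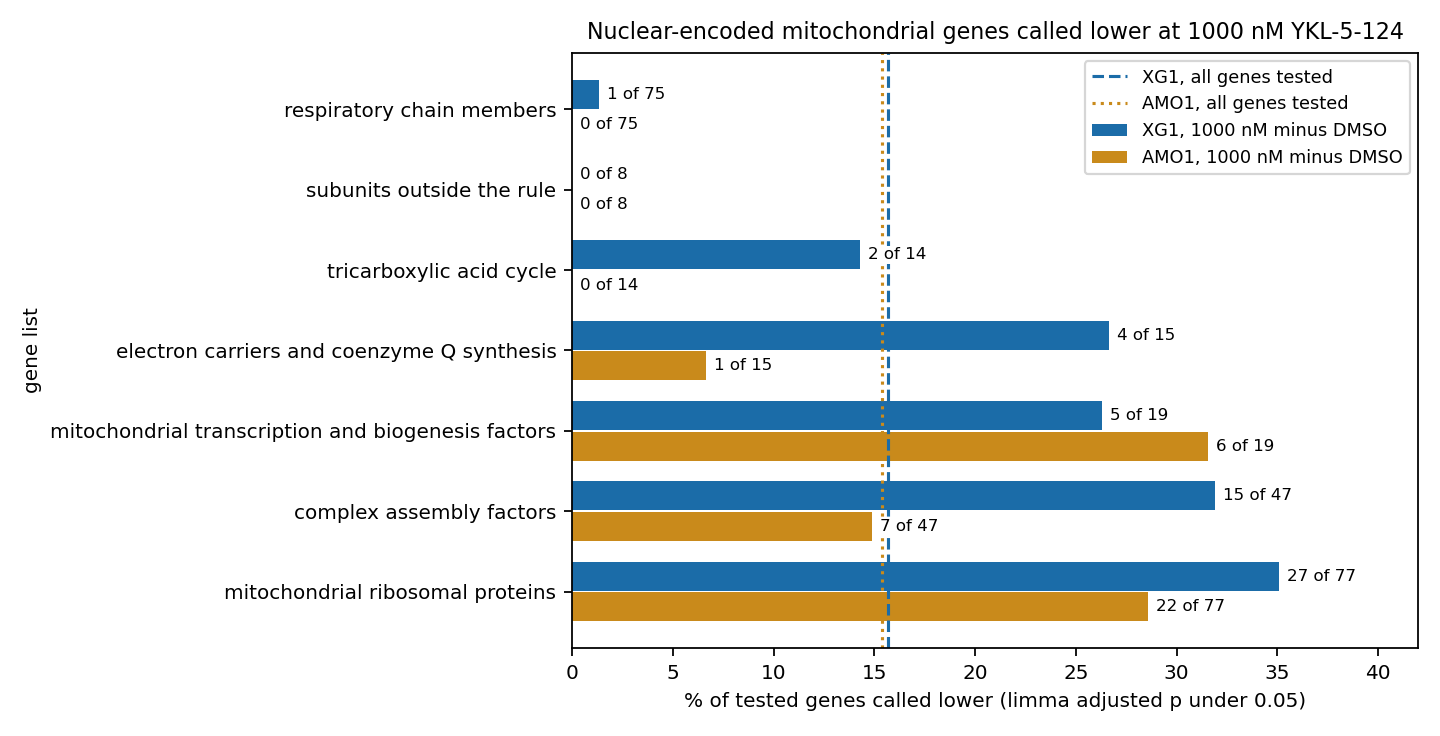
The share of each list's tested genes called lower at 1000 nM (horizontal axis, %), with XG1 above AMO1 and counts beside the bars, and dashed and dotted lines at 15.7% and 15.4% of all genes tested in XG1 and AMO1. The subunits stand at 1 of 75 and 0 of 75, and the mitochondrial ribosomal proteins at 27 of 77 and 22 of 77.

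These counts moved with the scaling and with single libraries. After centring the ribosomal protein genes called lower were 12 in XG1 and 4 in AMO1, where 7.94% and 6.68% of all genes were lower, and the assembly factors 5 and 4. After centring 3 assembly factors were also called higher in each line, where 7.94% and 8.29% of all genes were, and after quantile normalisation 6 were higher and 7 lower in XG1 and 4 higher and 4 lower in AMO1. Without AMO1 DMSO replicate 3 the ribosomal count was 43 in AMO1 and, through the shared estimate of the spread, 48 in XG1, and the assembly factor count was 17 in each. Without XG1 1000 nM replicate 2 these counts in XG1 were 13 and 5. The subunits were called lower 2 times in AMO1 without AMO1 DMSO replicate 3, where 23.7% of all genes were called lower, and 0 times in XG1 without XG1 1000 nM replicate 2, where 7.65% were. Those 2 were COX5A, a complex IV subunit (-0.38, limma adjusted p = 0.0149), and ATP5G2 (-0.27, limma adjusted p = 0.0328).

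Several single genes of these lists fell further than NDUFS4 did in XG1, and FH, named below, did not. MRPL16, a protein of the large mitochondrial ribosomal subunit, fell to 83.4 ± 10.5 FPKM at 1000 nM, against 182 ± 30.6 FPKM in DMSO in XG1 (-1.11 ± 0.14, limma adjusted p = 3.33e-05). In AMO1 it fell to 37.8 ± 0.505 FPKM, against 84.2 ± 6.74 FPKM (-1.13 ± 0.14, limma adjusted p = 3.42e-05; SD, n = 3 each). COA7, an assembly factor of cytochrome c oxidase, fell in both lines at 1000 nM, by 1.08 ± 0.21 in XG1 and 0.94 ± 0.21 in AMO1 on the log2 scale, and in XG1 at 100 nM by 0.90 ± 0.21 (limma adjusted p = 0.00176, 0.00472 and 0.0149). COQ7, a hydroxylase of coenzyme Q synthesis, fell by 1.29 ± 0.19 in XG1 (limma adjusted p = 0.000158) and by 0.60 ± 0.19 in AMO1 (limma adjusted p = 0.035, and 0.142 after centring). COQ7 averaged 1.30 FPKM at 1000 nM and 4.56 FPKM in DMSO in XG1, a level at which the added 1 FPKM understates the change. MRPL39 fell by 1.12 in XG1 and 0.96 in AMO1 on the log2 scale, the call in AMO1 ending after centring. In XG1 COA6 and COA4, both needed for complex IV, fell by 1.14 and 0.87, and COQ10A and COQ2 of the coenzyme Q pathway by 1.46 and 1.22. In AMO1 NDUFAF4, an assembly factor of complex I, and PET117, one of complex IV, fell by 0.91 and 0.88, the PET117 call ending after centring. Of the cycle enzymes IDH3A and FH fell in XG1, by 0.70 and 0.53, and FH was called under no other scaling. Leaving out 1 library of the 18 ended the calls of COQ7, MRPL39 and PET117 in AMO1 (in 5, 5 and 2 fits), of COA6, MRPL39, IDH3A and FH in XG1 at 1000 nM (in 1, 3, 2 and 9) and of COA7 in XG1 at 100 nM (in 2). Only a library of the groups compared can move a change. Most of the 18 fits left out another library and could act only through the shared estimate of the spread. Without XG1 1000 nM replicate 2 the changes were -0.84 for COA6 (limma adjusted p = 0.0541) and -0.94 for COQ10A (limma adjusted p = 0.0348).

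Some factors of mitochondrial transcription and biogenesis fell in 1 line or both. Of the 19 tested, 5 in XG1 and 6 in AMO1 were called lower at 1000 nM. After centring 2 and 3 were, where 7.94% and 6.68% of all genes were lower. Without XG1 1000 nM replicate 2 the count in XG1 was 2, where 7.65% of all genes were lower. Without AMO1 DMSO replicate 3 that in AMO1 was 9, where 23.7% were. GABPB1, the partner subunit of the ETS-family factor GABPA (NRF-2), fell by 1.29 ± 0.21 in AMO1 (limma adjusted p = 0.000406) and 0.72 ± 0.21 in XG1 (limma adjusted p = 0.0216, and 0.172 after centring). GABPA itself fell in AMO1 by 0.90 ± 0.27 (limma adjusted p = 0.0243, and 0.0623 after centring), and in XG1 its change of -0.76 ± 0.27 missed the threshold (limma adjusted p = 0.0536). TFB2M, which melts mitochondrial promoters, fell by 1.21 ± 0.28 in AMO1 (limma adjusted p = 0.00625), and TFB1M, a mitochondrial ribosomal RNA methyltransferase, by 0.98 ± 0.23 in XG1 (limma adjusted p = 0.00578). POLG2, the accessory subunit of the mitochondrial DNA polymerase, fell by 1.47 ± 0.37 in XG1 (limma adjusted p = 0.0108). At 100 nM 5 of 77 ribosomal protein genes (6.49%) were called lower in XG1, where 3.98% of all genes were. After centring 7 were, and 15 without AMO1 DMSO replicate 3, through the shared estimate of the spread. MRPL27, 1 of the 5, was at 86.6 FPKM in XG1 at 100 nM, against 212 FPKM in DMSO (-1.28 ± 0.26, limma adjusted p = 0.00621). SURF1, an assembly factor of complex IV, was called higher there, at 62.3 FPKM against 38.9 FPKM (0.66 ± 0.16, limma adjusted p = 0.0177). BCS1L, which inserts the Rieske protein into complex III, was called lower there (-0.58 ± 0.16, limma adjusted p = 0.0309). Leaving out 1 library ended the calls of GABPA in AMO1 (in 4 of 18 fits), of GABPB1 and POLG2 in XG1 at 1000 nM (in 3 and 1) and of SURF1 and BCS1L at 100 nM (in 4 and 5), and without XG1 1000 nM replicate 2 POLG2 was at -0.96. Here too, fits without a library of other groups could act only through the shared estimate of the spread. In AMO1 at 100 nM 0 genes of these lists were called by limma, where 0.434% of all genes were higher and 1.76% lower. At an unadjusted p under 0.05 were 6 of 77 ribosomal protein genes, 7 of 47 assembly factors and 7 of 19 biogenesis factors. That 0 rested on AMO1 DMSO replicate 3. Without it 7 ribosomal protein genes, 6 assembly factors and 1 biogenesis factor were called lower, with list medians of -0.25, -0.29 and -0.41. The share of all genes called in that fit is not given here.

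Members differed between the lines before treatment in a share near that of all genes. In DMSO 49 of the 75 members (65.3%) were called between XG1 and AMO1, 12 higher in XG1 and 37 lower, where 62.7% of all genes tested were, 28.3% higher and 34.4% lower. Libraries of the lines did not overlap for 13 members higher and 32 lower in XG1, where 30.7% and 34.4% of all genes did so. The median difference, XG1 minus AMO1, was -0.36, against -0.08 over all genes. Over the genes at 100 FPKM or more it was -0.57, and -0.36 over the 62 members among them, of which 41 were called, where 72% of those genes were. By complex 5 were higher and 21 lower of 37 in complex I, 1 and 1 of 4 in complex II, 1 and 4 of 8 in complex III, 2 and 4 of 9 in complex IV, and 3 and 7 of 17 in complex V. The medians of complexes I to V were -0.63, -0.09, -0.41, -0.34 and -0.25.

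The direction of that balance depended on scaling. After quantile normalisation 31 members were higher and 23 lower, with a median of 0.20, where 34.7% and 32.5% of all genes were, and after centring 15 were higher and 34 lower, where 32.7% and 34.6% were. All 12 higher calls held in the same direction in the 4 scalings tried (as deposited, centred, quantile and spike-in), 23 of the 37 lower calls did, and 6 of the 37 turned sign in at least 1 of them. Centring and spike-in scaling stay close to the values as deposited here, with medians of -0.30 and -0.32 against -0.36, so the 4 are not separate checks. Over 44 synthetic spike-in RNAs the lines differed with an SD of 0.55 log2, an error between lines. Whether the scatter among replicates covers it was not tested. Without AMO1 DMSO replicate 3, 10 members were higher and 45 lower, where 25.5% and 38.0% of all genes were.

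**Figure D4:**
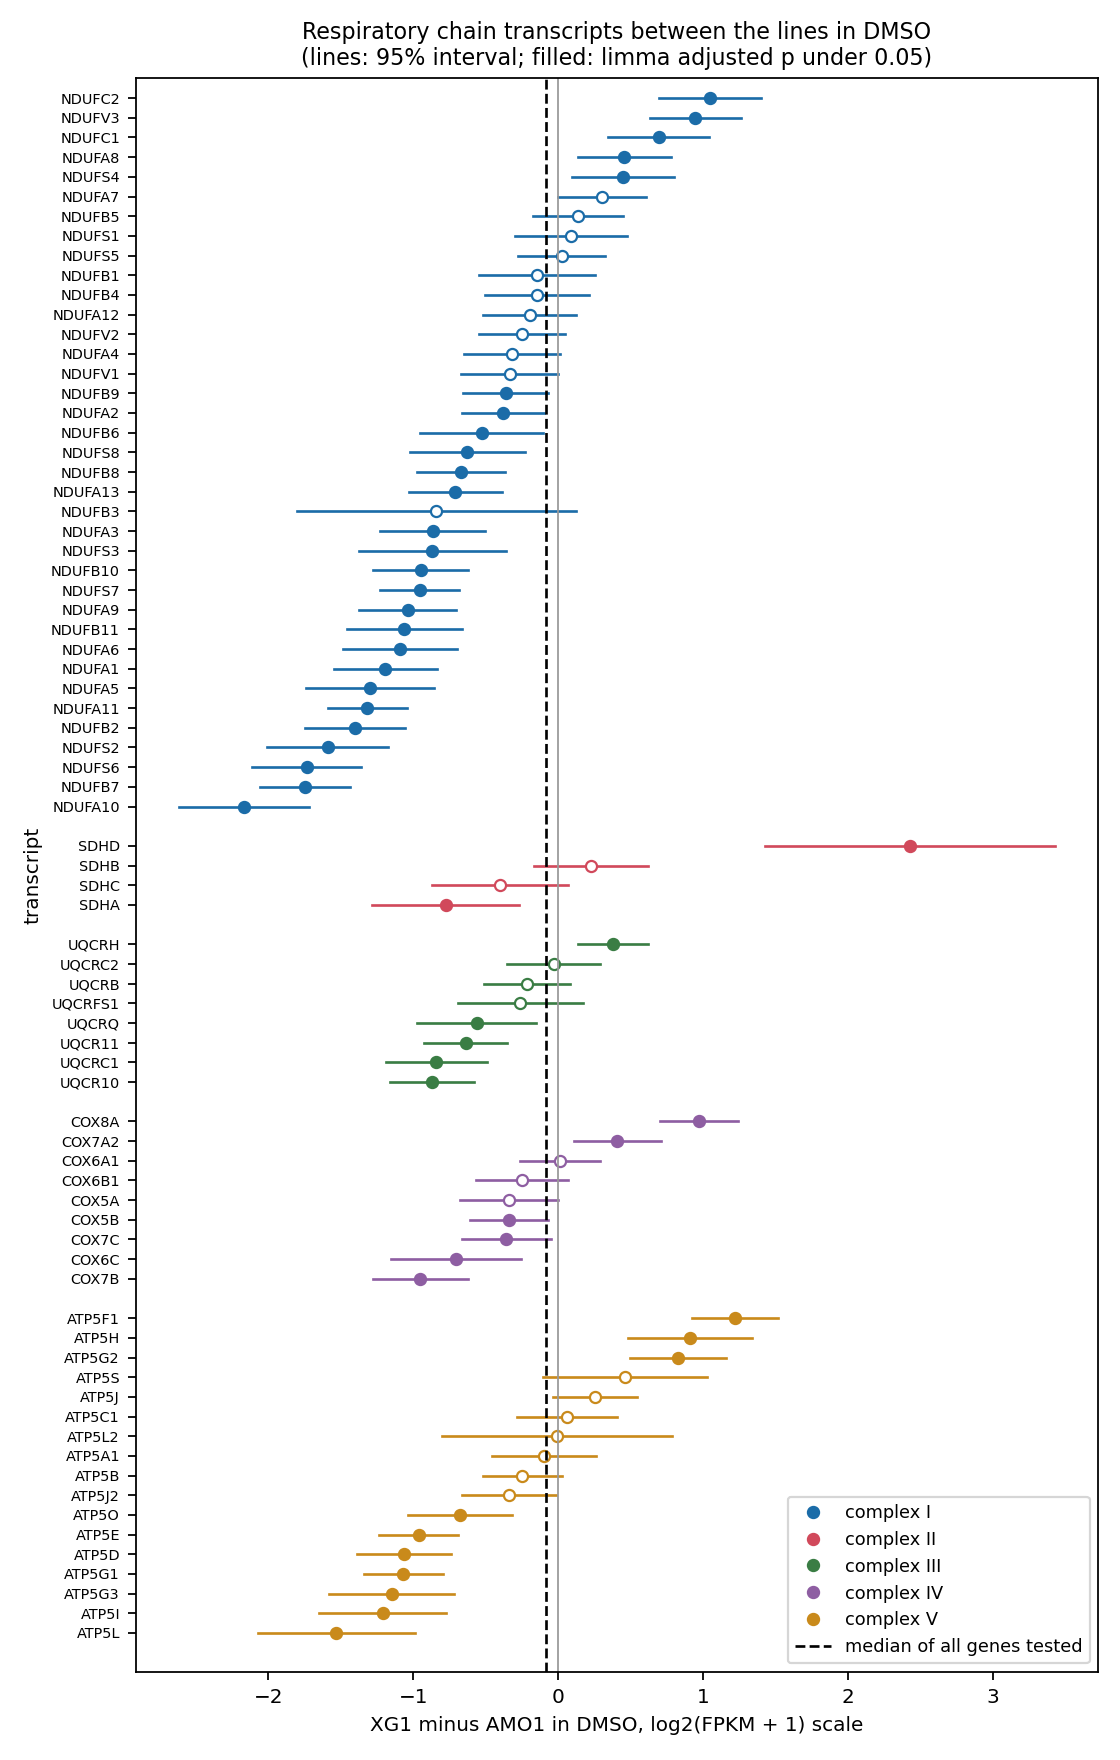
The difference XG1 minus AMO1 in DMSO on the log2(FPKM + 1) scale (horizontal axis) for 75 members (vertical axis, sorted within complexes I to V), with 95% intervals and filled points for limma adjusted p under 0.05. SDHD at 2.42 lies farthest to the right and NDUFA10 at -2.17 farthest to the left, and the dashed line is the median of all genes at -0.08.

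In complex I the accessory subunits NDUFA10, NDUFB7 and NDUFS6 were lowest in XG1. NDUFA10 was at 15.0, 14.6 and 11.6 FPKM in XG1, against 88.7, 72.3 and 42.2 FPKM in AMO1 (-2.17 ± 0.21, limma adjusted p = 2.53e-08). NDUFB7 was at 624, 514 and 445 FPKM in XG1, against 1679, 1831 and 1760 FPKM in AMO1 (-1.75 ± 0.15, limma adjusted p = 3.07e-09). NDUFS6 differed by -1.74 ± 0.18. The groups were well apart for all 3, where 34.4% of all genes were lower in XG1 without overlap. NDUFC2, NDUFV3 and NDUFC1, also accessory subunits, were higher in XG1, by 1.05 ± 0.17, 0.94 ± 0.15 and 0.69 ± 0.17. NDUFC2 was at 175, 166 and 137 FPKM in XG1, against 86.5, 78.8 and 64.2 FPKM in AMO1.

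SDHD, whose promoter with an NRF1 and an ETS pattern is printed above, had the largest difference of all members and in the direction opposite to most. It was at 27.7, 29.9 and 11.4 FPKM in XG1, against 2.63, 2.97 and 3.93 FPKM in AMO1 (2.42 ± 0.47, limma adjusted p = 0.000372). The other complex II subunits lay within 2-fold on average: SDHA was at 46.9 FPKM in XG1 and 86.5 FPKM in AMO1 (-0.78 ± 0.24, limma adjusted p = 0.00875, libraries overlapping, and -1.18 without AMO1 DMSO replicate 3), and SDHB and SDHC were not called. Over all 9 libraries of each line SDHD kept apart, at 4.76 to 30.2 FPKM in XG1 and 1.32 to 3.93 FPKM in AMO1.

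In complex III UQCR10, UQCRC1 and UQCR11 were lower in XG1, with differences of -0.87 ± 0.14, -0.84 ± 0.17 and -0.64 ± 0.14, and UQCRH was higher (0.38 ± 0.12). The UQCR11 call ended under quantile normalisation (-0.09, limma adjusted p = 0.453). UQCRC1, a core subunit, was at 54.6, 63.0 and 59.3 FPKM in XG1, against 122, 128 and 77.1 FPKM in AMO1. In complex IV COX7B was at 833, 706 and 747 FPKM in XG1, against 1733, 1646 and 1112 FPKM in AMO1 (-0.95 ± 0.16, limma adjusted p = 2.73e-05). COX6C and COX7C were lower, with differences of -0.71 ± 0.21 and -0.36 ± 0.15, and under quantile normalisation the COX6C call ended (-0.10, limma adjusted p = 0.618) and the sign of COX7C turned (0.31). COX6A1 and COX6B1, partners of the silent isoforms, were not called (0.01 ± 0.13 and -0.25 ± 0.15). COX8A and COX7A2 were higher in XG1, COX8A at 2355, 2343 and 2099 FPKM against 1289, 1232 and 968 FPKM in AMO1 (0.97 ± 0.13, limma adjusted p = 1.5e-06).

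In complex V the called subunits went both ways. The stalk subunits b (ATP5F1) and d (ATP5H) were higher in XG1, by 1.22 ± 0.14 and 0.91 ± 0.20, and the membrane subunits g (ATP5L) and e (ATP5I) lower (-1.53 ± 0.26 and -1.21 ± 0.21). ATP5F1 was at 217, 219 and 206 FPKM in XG1, against 102, 101 and 73.2 FPKM in AMO1, with no overlap. In that direction 30.7% of all genes did not overlap. ATP5L was at 1082, 1223 and 1365 FPKM in XG1, against 5191, 4399 and 1910 FPKM in AMO1, where the third library was far below the others. ATPIF1, the inhibitor of ATP hydrolysis by the synthase and not a member, was at 914 FPKM in XG1 and 344 FPKM in AMO1 (1.44 ± 0.16, limma adjusted p = 1.25e-07).

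The c subunit, which forms the rotating ring of complex V, is encoded by the 3 genes ATP5G1, ATP5G2 and ATP5G3, which give the same mature protein; the promoters of ATP5G1, with the CREB pattern and CCAAT, and of ATP5G2, with none of the patterns, are printed above. ATP5G2 was at 1806, 1815 and 1751 FPKM in XG1, against 1255, 1161 and 709 FPKM in AMO1 (0.82 ± 0.16, limma adjusted p = 0.000136). ATP5G1 was at 1283, 1277 and 1076 FPKM in XG1, against 2661, 2790 and 2194 FPKM in AMO1 (-1.07 ± 0.13, limma adjusted p = 5.38e-07). ATP5G3 was at 465, 491 and 487 FPKM in XG1, against 1414, 1254 and 687 FPKM in AMO1 (-1.15 ± 0.21, limma adjusted p = 6.26e-05). None of the 3 pairs of groups overlapped, where 30.7% of all genes were higher and 34.4% lower in XG1 without overlap. Of the summed FPKM of the 3 genes, ATP5G2 made up 51.4 ± 1.21% in XG1 and 21.9 ± 1.94% in AMO1 in DMSO, and ATP5G1 34.7 ± 1.97% and 54.9 ± 5.71% (SD, n = 3 each).

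At 1000 nM the share of ATP5G2 was 47.3 ± 0.526% in XG1 and 20.4 ± 0.288% in AMO1, and ATP5G2 held the largest share of the summed FPKM in all 3 XG1 groups and ATP5G1 in all 3 AMO1 groups. Shares of FPKM compare the lines and do not rank molecules of the 3 genes, because FPKM is set by length. RefSeq also names 8 pseudogenes of ATP5G1, 5 of ATP5G2 and 0 of ATP5G3. None of the 3 genes was called at either dose. In XG1 ATP5G1 averaged 1464 FPKM at 100 nM and 1212 FPKM in DMSO (0.28 ± 0.13, limma adjusted p = 0.238), and in AMO1 3299 FPKM and 2548 FPKM (0.38 ± 0.13, limma adjusted p = 0.146). The 100 nM and DMSO libraries did not overlap in either line.

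**Figure D5:**
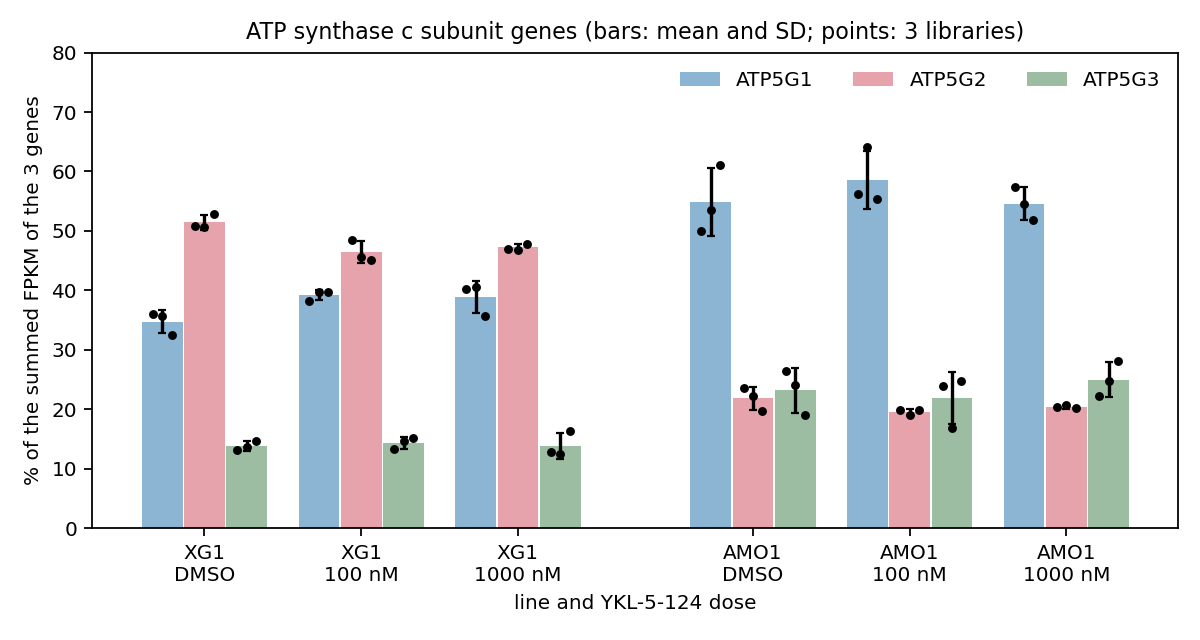
The percentage of the summed FPKM of ATP5G1, ATP5G2 and ATP5G3 held by each gene (vertical axis) in the 6 groups of line and dose (horizontal axis), with bars for the mean, error bars for the SD and points for the 3 libraries. ATP5G2 is the highest in every XG1 group and ATP5G1 in every AMO1 group, on a scale that does not rank molecules of different genes.

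Among the other genes of the pathway the lines also differed both ways. CYCS, cytochrome c, was at 43.1 FPKM in XG1 and 130 FPKM in AMO1 (-1.56 ± 0.16, limma adjusted p = 2.88e-08), and COX4I1, a nuclear-encoded subunit of complex IV, at 687 FPKM and 1427 FPKM (-1.02 ± 0.17, limma adjusted p = 2.12e-05). PPARGC1A, the coactivator PGC-1 alpha of mitochondrial biogenesis, was at 0.318 FPKM in XG1 and 6.88 FPKM in AMO1 (-2.57 ± 0.18, limma adjusted p = 9.16e-11). LYRM7, which chaperones the Rieske protein of complex III, was at 8.65 FPKM in XG1 and 0.126 FPKM in AMO1 (3.09 ± 0.16, limma adjusted p = 1.46e-12). LYRM7 in AMO1 lay in the range of the libraries' lowest common values (0.0745 to 0.133 FPKM), and PPARGC1A in XG1 lay below 1 FPKM. At such levels the added 1 FPKM understates both differences. IDH2, the mitochondrial NADP-linked isocitrate dehydrogenase, was at 76.2 FPKM in XG1 and 9.75 FPKM in AMO1 (2.87 ± 0.20, limma adjusted p = 9.32e-11). Of the 77 ribosomal protein genes 15 were higher and 38 lower in XG1, of 47 assembly factors 10 and 25, of 15 carrier genes 3 and 4, of 19 biogenesis factors 5 and 4, of 14 cycle genes 2 and 7, and of the 8 other subunits 2 and 3. These counts stand beside 28.3% of all genes tested called higher in XG1 and 34.4% called lower. Whether any list departs from those shares was not tested.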

How the data were processed

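Libraries were made with a 3′ kit (QuantSeq) from TRIzol lysates, with 92 synthetic spike-in RNAs in the tables, per the labels' protocols and the deposited tables. The authors deposited 1 table of FPKM per library, made with HISAT2 and Cuffnorm on hg19 per the submitters' processing notes, which give no versions, and the unit is taken from the tool's name. Read depth is unknown from such values, so no counting intervals are given; 9284 to 10571 genes per library were at 1 FPKM or more.

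The 18 libraries were grouped by label into 6 groups of 3. All were fitted together with limma 3.58.1 (trend and robust, statmod 1.5.0, R 4.3.3) on log2(FPKM + 1), 1 mean per group, two-sided, over genes whose mean reached 1 FPKM in any group. Benjamini-Hochberg adjustment ran over all 12204 genes and the threshold was 0.05. The procedure was tested on simulated data with known changes. Alternatives were median centring, quantile normalisation, spike-in scaling with 44 spike-ins, other filters and pseudocounts, fits to the compared libraries alone, a replicate block and leaving out each library.

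Named were the called members with the largest changes (up to 3 per direction and complex), the most and least abundant member of each complex, members under 1 FPKM, isoform pairs, complex II, and up to 3 called genes per direction of each further list, of which examples are printed; others are said to be chosen after their values were seen. The members and lists were chosen with earlier results of these data known. Promoters are from RefSeq, GRCh38.p14, matched by symbol.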

Additional observations from a re-analysis of the deposited data

How the results depend on the processing

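Of the counts of called members recomputed under alternatives, 231 stayed within 1.5 times the reported count and 21 moved, and the cause was not tested. The 231 does not measure stability. For a comparison of 2 groups most fits that left out 1 library dropped one outside it, which leaves the changes as they were. Many counts were also 0 both as reported and under the alternative. At 100 nM against DMSO in XG1, where 0 members were called, centring gave 1 and quantile normalisation 6, and leaving out 1 library gave 0 to 2. At 1000 nM in XG1, where 1 was called, centring gave 0, quantile normalisation 4 (all higher), a minimum mean of 5 FPKM 2, no filter 0 and the compared libraries alone 0, and leaving out 1 library gave 0 to 3. At 1000 nM in AMO1, where 0 were called, centring gave 7, quantile normalisation 5, and leaving out 1 library 0 to 2. Leaving out 1 library gave 0 to 0 at 100 nM in AMO1, 0 to 2 for 1000 against 100 nM in XG1 and 42 to 55 between the lines. Centring and quantile normalisation also moved the split of all genes called at 1000 nM, to 969 higher and 969 lower and to 1174 and 1209 in XG1, and to 1012 and 815 and to 861 and 1011 in AMO1.

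Signs turned for SDHC at 1000 nM in AMO1 (0.19 after centring, 0.14 after quantile normalisation, -0.23 to 0.12 leaving out 1 library), for SDHC at 1000 nM in XG1 (0.14, 0.20, and -0.26 to 0.0048), for SDHA at 1000 nM in XG1 (0.13 and 0.18), and between the lines under quantile normalisation for COX7C (0.31) and CYC1 (0.28). Same-numbered replicates did not deviate together (correlations of -0.124 to 0.091), so the numbers do not pair the libraries. Spike-in scaling gave 0 and 1 called members at 100 and 1000 nM in XG1, 0 and 0 in AMO1, and 12 higher and 36 lower between the lines. With a replicate block 0 members were called at 1000 nM in XG1 and 8 higher and 33 lower between the lines. Read depth is unknown, which limits what can be said of members near 1 FPKM, such as ATP5L2.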
